A study of Mus musculus with 6 samples.

Results

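Molecules that spermatogonia, the mitotic germ cells of the testis, carry on their surface were followed in whole testes of mice at postnatal day 5. The set held 10 genes, taken by symbol from a named list: Epcam, Cdh1, Cdh2, Tspan8, Itga6, Itgb1, Thy1, Cd9, Cd24a and Adgra3. All 10 were found among the 57170 gene identifiers measured, and all 10 passed the filter on low counts that left 17707 genes for testing. The WT group consisted of 2 libraries from wild-type testes, numbered 1 and 2. The sKO group consisted of 4, numbered 1 to 4, from testes in which Mdm2, the ubiquitin ligase that restrains p53, was knocked out conditionally in germ cells before meiosis. The promoter that drives the recombinase, the strain and the number of animals behind each library were not stated in the labels, so p-values describe the spread between libraries. Only germ cells were targeted, while the RNA came from every cell of the testis.

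Antibodies to these proteins are used to enrich spermatogonial stem cells from testis suspensions, because no single surface protein marks them alone. EpCAM and E-cadherin (Cdh1) hold epithelial cells and spermatogonia together, and integrins of the α6 and β1 kind anchor cells to laminin in the basement membrane. N-cadherin (Cdh2) also joins Sertoli cells, the somatic nurse cells, to germ cells. Cd9 and Tspan8 are tetraspanins, which organise integrins and other proteins in the membrane. Thy1 and Cd24a are small glycoproteins held by a lipid anchor, and Adgra3 (GPR125) is an adhesion G protein-coupled receptor. Several of these proteins are made by somatic cells of the testis as well. In RNA of a whole organ, fewer cells of a type and less RNA per cell cannot be told apart.

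Summed counts were 17.99 to 18.4 M (mega) per library. Levels are given as CPM, counts divided by the scaled library size. Mdm2 was at 67.2 and 75.9 CPM in WT-1 and WT-2 and at 37.6 to 47.3 CPM in the libraries labelled sKO. The libraries held the defining transcripts of the labelled tissue: 22 Sertoli cell genes summed to 7525 to 9155 CPM in WT and 8791 to 9963 CPM in sKO. A list of 26 germ cell genes, none of them a member, summed to 1254 and 878 CPM in WT-1 and WT-2 and to 263, 176, 159 and 271 CPM in sKO-1 to sKO-4. In sKO 24 of them were lower and 0 higher (2.3% and 0.124% of all genes tested were), and the median difference was −2.28 on the log2 scale. The list was chosen with earlier results of these data known, so these counts describe it and are no independent test of germ cell loss. That list was used as the reference for germ cell transcripts. Over all genes the libraries fell into 2 subsets, WT-1 with sKO-1 and sKO-2, and WT-2 with the other sKO libraries, a division that the labels do not name and that each genotype shares. Members whose call depended on it are given with and without a term for it. The division was taken from earlier results of these same data, so p-values from fits with that term may be too small. With the term 13.6% of all genes tested were called in either direction, against 2.43% without it.

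The members split in 3 ways. In every sKO library Epcam and Cdh1 were below their WT values, by less than the germ cell genes and with a wide spread among the sKO libraries. Itga6 and Cd9 were slightly lower, and Cdh2, Itgb1, Adgra3 and Tspan8 stayed within or near the WT range. Cd24a rose, and Thy1 was close to the limit of counting. By the edgeR quasi-likelihood test with adjustment over all genes, 1 of the 10 members was called higher (0.124% of all genes tested were) and 0 were called lower (2.3% of all genes tested were). At an unadjusted p under 0.05, edgeR gave 3 of 10 members and 13.1% of all genes. With DESeq2 1 member was called higher (0.392% of all genes it tested were) and 1, Epcam, lower (3.16% were). The sKO values lay below both WT values for 4 members (13.3% of all genes) and above them for 2 (9.79% of all genes).

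**Figure D1:**
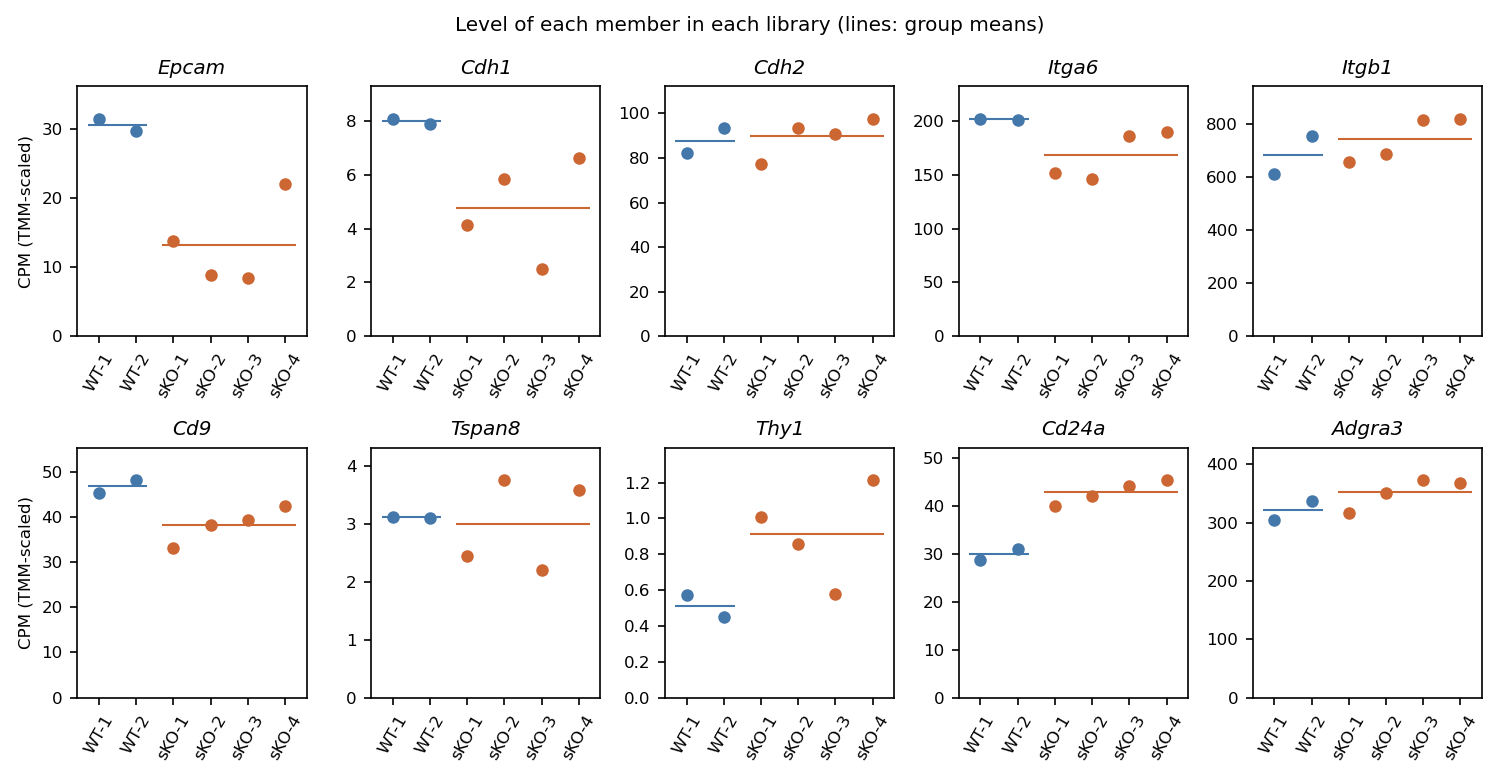
Each panel shows 1 member and each point 1 library, in CPM on a linear axis from 0; blue is WT, orange sKO, and lines are group means. Epcam, Cdh1, Itga6 and Cd9 lie below both WT libraries in all 4 sKO libraries, and Cd24a and Thy1 lie above them.

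Epcam encodes a homophilic adhesion protein of epithelia and of undifferentiated spermatogonia. It was at 31.5 CPM in WT-1 and 29.7 in WT-2, and at 13.7, 8.89, 8.43 and 22.0 CPM in sKO-1 to sKO-4. The groups did not overlap, and sKO-4 was the highest of the sKO libraries. The WT mean was 30.6 ± 1.21 CPM (SD, n = 2), and the sKO mean was 13.3 ± 6.30 (SD, n = 4), or 43.3% of the WT mean. The log2 fold change was −1.21 (SE 0.36; 95% interval −2.04 to −0.38), with an edgeR adjusted p = 0.175, so Epcam did not pass the test. The difference rested on 146 to 381 counts per sKO library and 528 and 606 in WT. A term for the library subset gave −1.23 and an adjusted p = 0.0330. DESeq2 gave −1.20 (adjusted p = 0.0235), and the edgeR fit without sKO-4 gave −1.58 (adjusted p = 0.0320). Without sKO-3 the log2 fold change was −1.04 (adjusted p = 0.303), and Epcam also did not pass without sKO-1 (0.282) or sKO-2 (0.311). Left-out WT-1 or WT-2 gave log2 fold changes of −1.17 and −1.28. Epcam did not pass with limma-voom (adjusted p = 0.0765), RLE factors (0.177), upper-quartile factors (0.181) or Sertoli library sizes (0.0968). It passed in edgeR with no count filter (0.0375).

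The start of the Epcam gene is shown because Epcam had the most negative fold change of the members, beside that of Tspan8, whose level differed little. Each sequence is the 250 bases before the RefSeq start of the gene (GRCm38.p6, plus strand, 5′ to 3′), and capitals mark a GC box (GGGCGG on either strand). RefSeq gave a start sequence for 5 of the 10 members. Epcam lies at chr17:87635729-87635978 and Tspan8 at chr10:115817034-115817283.
Epcam: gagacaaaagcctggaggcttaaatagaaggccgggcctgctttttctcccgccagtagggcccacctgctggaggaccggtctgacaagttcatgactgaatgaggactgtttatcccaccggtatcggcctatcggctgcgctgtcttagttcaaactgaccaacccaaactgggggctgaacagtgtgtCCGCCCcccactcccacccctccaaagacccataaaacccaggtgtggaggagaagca
Tspan8: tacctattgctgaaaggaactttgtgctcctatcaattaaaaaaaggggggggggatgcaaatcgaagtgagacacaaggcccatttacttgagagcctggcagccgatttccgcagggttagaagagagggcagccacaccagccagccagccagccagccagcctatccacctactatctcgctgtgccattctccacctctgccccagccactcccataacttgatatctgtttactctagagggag
Epcam had 1 GC box and 8 CpG dinucleotides in this window, and Tspan8 had 0 GC boxes and 4 CpG. Of 32851 RefSeq starts, 32.7% held a GC box in the same window, and the median number of CpG was 6. Adgra3, Cd9 and Itgb1, which were nearer to their WT levels than Epcam, had 25, 16 and 21 CpG there. These letters describe the windows only, and no library measured the activity of a promoter.

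Cdh1, the cadherin of epithelia and of undifferentiated spermatogonia, was at 8.10 and 7.89 CPM in WT-1 and WT-2. It was at 4.13, 5.84, 2.48 and 6.64 CPM in sKO-1 to sKO-4, below WT in all 4 and lowest in sKO-3. The group means were 7.99 ± 0.15 (SD, n = 2) and 4.77 ± 1.85 (SD, n = 4). The log2 fold change was −0.74 (SE 0.36, edgeR adjusted p = 0.453), and −0.74 (adjusted p = 0.158) with the subset term, so Cdh1 did not pass in either fit. Cdh2, the cadherin that Sertoli cells share with germ cells, had overlapping groups. The WT libraries had 82.3 and 93.2 CPM of it, against 77.1, 93.4, 90.7 and 97.6 CPM in sKO-1 to sKO-4. Its log2 fold change was 0.03 (SE 0.12; 95% interval −0.24 to 0.30; adjusted p = 0.955), and its sign changed to −0.139 with library sizes taken from the Sertoli genes.

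Epithelium of the rete testis and epididymis also makes EpCAM and E-cadherin, and its markers were read beside both. As a percent of the WT mean, Epcam was at 44.8, 29.0, 27.6 and 71.9% and Cdh1 at 51.6, 73.0, 31.1 and 83.1% in sKO-1 to sKO-4. The summed germ cell genes were at 24.7, 16.5, 14.96 and 25.5%. Of the 16 genes of the epithelial list 9 could be tested, and 1 was lower and 0 higher (2.3% and 0.124% of all genes tested were). The epididymal genes Lcn8 and Lcn9 were at 0 in every library. The lower gene was Esrp1, a splicing regulator of epithelial cells. Its WT mean was 34.4 ± 7.22 CPM (SD, n = 2) and its sKO mean 10.6 ± 2.85 (SD, n = 4), a fall by 1.69 on the log2 scale (SE 0.25, edgeR adjusted p = 0.0211). The Esrp1 call ended without WT-1 or without sKO-2, and its adjusted p ran from 0.0310 to 0.245 when single libraries were left out. The list as a whole summed to 79.4 to 83.2 CPM in WT and 61.5 to 69.0 in sKO, and Esrp1 made up that difference. Without Esrp1, a sum taken after the values were seen, the other 15 genes were at 39.9 and 53.9 CPM in WT-1 and WT-2. In sKO they lay between 51.9 and 55.8 CPM. Most of this sum came from the keratin genes Krt8 and Krt18 and the transcription factor Elf3, at 15.1, 8.10 and 8.83 CPM in WT-1. No other of the 15 genes exceeded 3.29 CPM in any library, so the sum says little of them. Krt8 (log2 fold change 0.35, SE 0.19), Krt18 (0.20, SE 0.38) and Elf3 (0.38, SE 0.29) had overlapping groups and did not pass. Of the 9 tested genes 5 had a negative log2 fold change and 4 a positive one. Wfdc2 was at −0.41 (SE 0.37), Pax2 at −0.34 (SE 0.46), Cldn7 at −0.28 (SE 0.54) and Pax8 at −0.22 (SE 0.56). Emx2 stood at 0.15 (SE 0.58). None of these passed, and only Wfdc2 among them lay below both WT values in every sKO library. The order of Krt8, Krt18 and Elf3 among the sKO libraries was neither that of Epcam nor that of Cdh1. Krt8 and Krt18 were highest in sKO-3, at 25.2 and 20.5 CPM, and Elf3 in sKO-2, at 13.8 CPM. Cldn7, Wfdc2 and Esrp1 also had neither order. Pax8 had the order of Epcam, and Pax2 and Emx2 had that of Cdh1, each highest in sKO-4 and lowest in sKO-3. Pax8, Pax2 and Emx2 were scarce, at no more than 3.29 CPM in any library. The part of this epithelium in the Epcam and Cdh1 values was not tested.

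**Figure D2:**
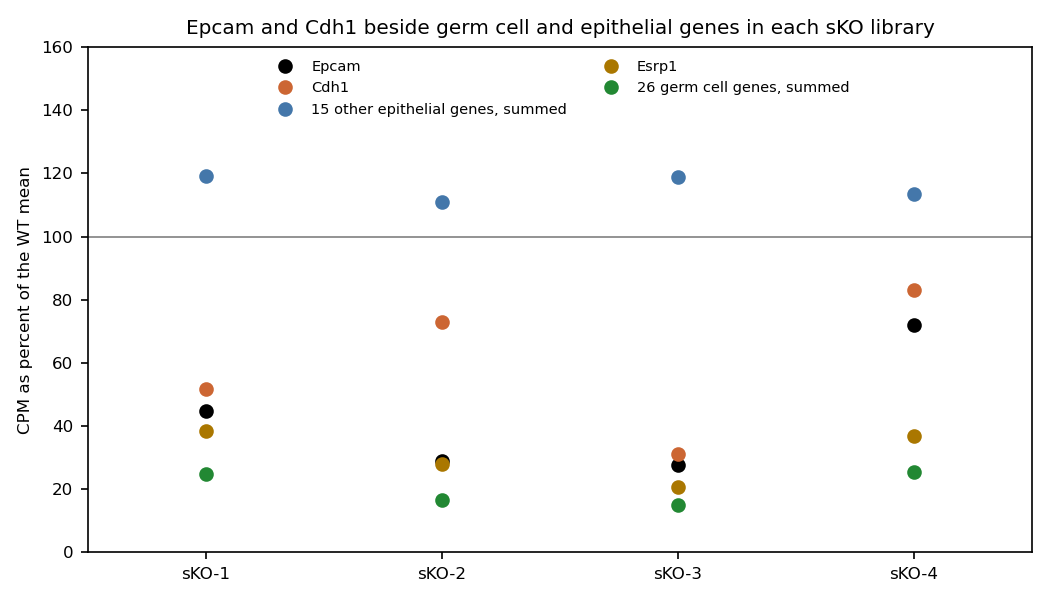
Each point is the level of 1 gene, or of the summed 26 germ cell genes, in 1 sKO library, as percent of the WT mean (linear axis, grey line at the WT mean), with the summed 15 epithelial genes other than Esrp1. The sum of those 15 genes, most of it from Krt8, Krt18 and Elf3, lies at 111% to 119%. Epcam and Cdh1 reach 71.9% and 83.1% in sKO-4, where the germ cell genes are at 25.5%.

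Itga6 and Itgb1 encode the α6 and β1 integrin chains, which pair as a laminin receptor. Itga6 was at 202 and 201 CPM in WT-1 and WT-2 and at 152, 147, 187 and 190 CPM in sKO-1 to sKO-4. All 4 sKO libraries were below WT, with sKO-3 and sKO-4 nearest to it. The log2 fold change was −0.26 (SE 0.13, adjusted p = 0.466). With the subset term it was −0.27 (adjusted p = 0.0442), and the differences in log2 CPM were −0.44 within the subset of WT-1 and −0.0949 within that of WT-2. Itgb1, the most abundant member, was at 610 and 755 CPM in WT, against 658, 685, 814 and 820 CPM in sKO-1 to sKO-4. Its groups overlapped (log2 fold change 0.13, SE 0.14; 95% interval −0.19 to 0.45; adjusted p = 0.806). The sign of the Itgb1 difference turned to −0.0430 with library size set to the Sertoli genes and to −0.0202 without WT-1.

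Cd9 was at 45.4 and 48.1 CPM in WT-1 and WT-2 and at 33.1, 38.2, 39.2 and 42.4 CPM in sKO-1 to sKO-4. All 4 sKO libraries were below WT, by 18.2% in the mean. The log2 fold change was −0.29 (SE 0.12; 95% interval −0.56 to −0.02), with an adjusted p = 0.349, and an adjusted p = 0.0464 with the subset term. Peritubular myoid cells, the contractile cells around the tubules, had a median difference of like size. All 9 genes of their list had a negative log2 fold change (median −0.27). By edgeR 1 was lower (2.3% of all genes tested were) and with the subset term 4 were (8.65%). The 9 genes summed to 934 and 1106 CPM in WT-1 and WT-2, against 865, 765, 937 and 896 CPM in sKO-1 to sKO-4. The lower gene was Cnn1, a smooth muscle calponin (−1.73, SE 0.30, adjusted p = 0.0323), and its call ended when any 1 library was left out (0.0538 to 0.268). The part of these cells in the Itga6 and Cd9 values was not tested. Tspan8, the tetraspanin used to separate spermatogonia with high stem cell activity, was at 3.12 and 3.10 CPM in WT, against 2.43, 3.75, 2.19 and 3.58 CPM in sKO-1 to sKO-4. Both WT values fell inside the sKO range, and the log2 fold change was −0.06 (SE 0.31; 95% interval −0.76 to 0.65; adjusted p = 0.970). Tspan8 rested on 38 to 70 counts per library, and its interval spans both a fall and a rise of over 0.6 on the log2 scale.

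Cd24a, a mucin-like adhesion glycoprotein, was the member called higher. It was at 28.7 and 31.0 CPM in WT-1 and WT-2 and at 40.0, 42.0, 44.0 and 45.3 CPM in sKO-1 to sKO-4, above both WT libraries in all 4. The means were 29.8 ± 1.61 (SD, n = 2) and 42.8 ± 2.33 CPM (SD, n = 4), a ratio of 1.43. On the log2 scale the difference was 0.52 (SE 0.10), with an edgeR adjusted p = 0.0492. The size was nearly equal in both library subsets, at 0.51 and 0.53 on the log2 CPM scale. The call was at the edge of the threshold, and Cd24a matches 1 other annotated gene closely enough that the deposited counts may share reads between them. It ended when any 1 of the 6 libraries was left out, at an adjusted p of 0.383 for WT-1, 0.167 for WT-2 and 0.0783 to 0.155 for the sKO libraries. It also ended with RLE factors (0.0542), with limma-voom (0.0527) and with Sertoli library sizes, where the log2 fold change was 0.35 (adjusted p = 0.175). It held with DESeq2 (adjusted p = 0.00648) and with the subset term (adjusted p = 0.00243).

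Immature red cells carry Cd24a, and the sum of their transcripts was above both WT values in every sKO library. The 9 erythroid genes summed to 403 to 406 CPM in WT and to 489, 513, 502 and 710 CPM in sKO-1 to sKO-4, and 0 of the 7 tested passed the edgeR test. The β-globin gene Hbb-bs was at 152 and 154 CPM in WT, against 204, 189, 202 and 271 CPM in sKO-1 to sKO-4. Of 22 Sertoli cell genes 1 was higher and 0 lower by edgeR (0.124% and 2.3% of all genes tested were), with a median log2 fold change of 0.15. An unadjusted edgeR p under 0.05 was seen for 8 of them (13.1% of all genes). The groups did not overlap for 11 of them (23% of all genes), with 7 above WT (9.79% of all genes) and 4 below (13.3%). The called gene was Amh, the hormone that makes the Müllerian duct regress (0.45, SE 0.09, adjusted p = 0.0429), and that call ended when any 1 library was left out (adjusted p 0.0696 to 0.323). Differences near the size of that of Cd24a were seen both ways: Inha, the inhibin α chain, stood at 0.51 (SE 0.17), Hsd17b1, a steroid dehydrogenase, at 0.51 (SE 0.20), the junction protein gene Cldn11 at −0.44 (SE 0.10) and the transcription factor gene Dmrt1 at −0.45 (SE 0.12). With the subset term 6 Sertoli genes were higher and 3 lower (4.97% and 8.65% of all genes tested were). Which of these cells carry the Cd24a difference was not tested. The 3 genes whose log2 CPM followed Cd24a most closely over the 6 libraries, among 13171 genes, were Acot6, an acyl-CoA thioesterase (Pearson r = 0.994), Tmem263 (r = 0.994) and the heparan sulfate proteoglycan Sdc2 (r = 0.994). Sdc2 went from 65.7 to 96.9 CPM (log2 fold change 0.56, adjusted p = 0.0205). The Sdc2 call ended with Sertoli library sizes (adjusted p = 0.0888) and when any 1 library other than sKO-1 was left out (0.0575 to 0.227). Acot6 went from 6.17 to 9.42 CPM (0.61, adjusted p = 0.149) and Tmem263 from 64.1 to 82.4 CPM (0.36, adjusted p = 0.0848), and neither passed.

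Thy1, a glycoprotein of neurons, T cells and stromal cells that is used to sort spermatogonia, was the rarest member. It was at 0.571 and 0.451 CPM in WT-1 and WT-2 and at 1.01, 0.857, 0.578 and 1.21 CPM in sKO-1 to sKO-4. These levels stand for 11 and 8 counts in WT and 19, 16, 10 and 21 in sKO. The sKO values lay above WT, with sKO-3 nearly level with WT-1, and the log2 fold change of 0.83 had an SE of 0.45 (adjusted p = 0.518). The 8 T cell genes summed to 3.95 to 4.11 CPM in WT and 3.01 to 4.28 in sKO. The 8 nerve and Schwann cell genes summed to 145 and 153 CPM in WT, against 142, 176, 182 and 181 CPM in sKO-1 to sKO-4, above WT in all but sKO-1, and 0 of the 4 tested passed. Of 11 stromal genes 0 passed (median log2 fold change 0.18). Dcn (0.33, SE 0.13) and Tcf21 (0.26, SE 0.09) lay above both WT values in every sKO library (9.79% of all genes did). With the subset term 5 stromal genes were higher and 0 lower (4.97% and 8.65% of all genes tested were). The part of these cells in the Thy1 values was not tested. Adgra3 was at 305 and 337 CPM in WT, against 316, 351, 373 and 368 CPM in sKO-1 to sKO-4. The Adgra3 groups overlapped (log2 fold change 0.13, SE 0.10; 95% interval −0.10 to 0.37; adjusted p = 0.680), and the sign turned to −0.0401 with Sertoli library sizes.

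Levels of different genes were compared per kilobase of annotated exon. In WT Itgb1 was the highest member at 167 CPM per kb, then Adgra3 at 39.6, Cd9 at 22.9, Itga6 at 22.3, Epcam at 13.9, Cd24a at 11.6, Cdh2 at 10.9, Tspan8 at 1.83, Cdh1 at 1.75 and Thy1 at 0.171. The WT ranges of Cd9 and Itga6 overlapped (22.2 to 23.5 and 22.3 to 22.4 CPM per kb), as did those of Cd24a and Cdh2 (11.1 to 12.0 and 10.2 to 11.6). In sKO Cd24a stood at 16.6, Cdh2 at 11.1 and Epcam at 6.04 CPM per kb. Epcam thus went from above to below both Cd24a and Cdh2, although its highest sKO library (10.03) overlapped the Cdh2 range (9.56 to 12.1). E-cadherin RNA was scarcer than N-cadherin RNA in both groups.

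**Figure D3:**
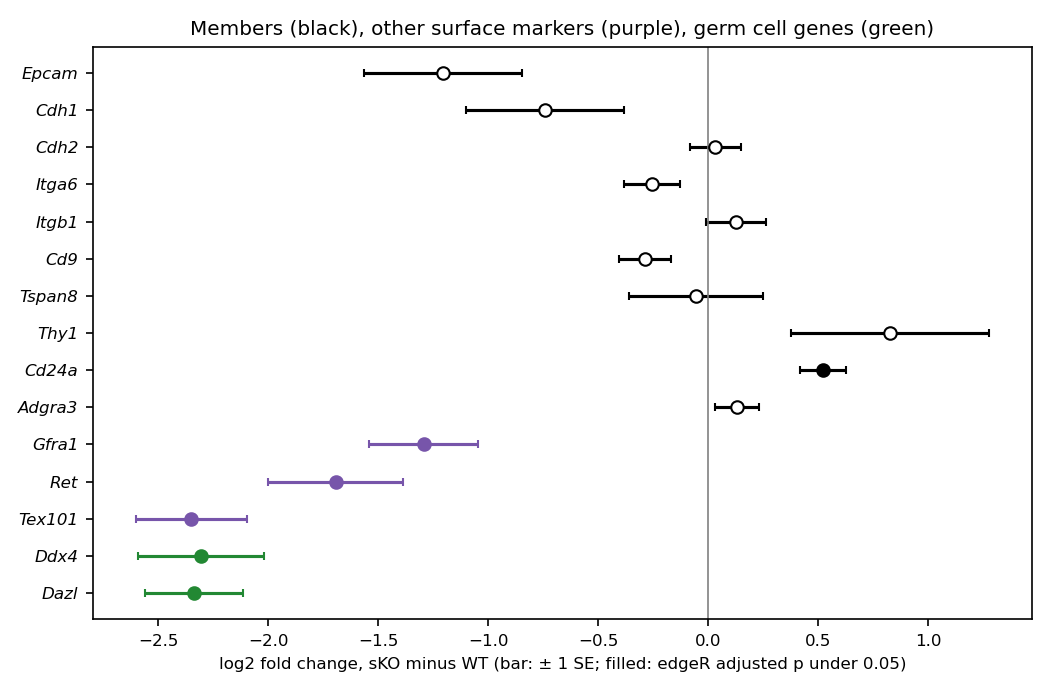
Points are log2 fold changes of sKO minus WT from the edgeR fit over all genes, with bars of 1 SE; filled points passed at an adjusted p under 0.05. The members (black) run from −1.21 for Epcam to 0.83 for Thy1, and the germ cell genes Ddx4 and Dazl (green) lie at −2.31 and −2.34.

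To ask whether a member fell by as much as the list of 26 germ cell genes, its level was divided by their sum in each library, so that library size cancels. On this log2 scale Epcam stood at −5.32 and −4.88 in WT-1 and WT-2 and at −4.26, −4.31, −4.24 and −3.62 in sKO-1 to sKO-4. The ratio was thus higher in all 4 sKO libraries, and close together in sKO-1, sKO-2 and sKO-3. The difference was 0.99 for Epcam and 1.47 for Cdh1. For the other members it was 2.02 (Cd9), 2.04 (Itga6), 2.22 (Tspan8), 2.34 (Cdh2), 2.44 (Itgb1 and Adgra3), 2.83 (Cd24a) and 3.11 (Thy1). For every member the 4 sKO ratios exceeded both WT ratios. A gene of constant level would show the same order, because the germ cell sum was lower in every sKO library. The share of all genes in this order was not computed, so the order says nothing particular to the members. An exact two-sided permutation test over the 15 assignments gave p = 0.0667 for each member, the smallest it allows, and 0.0667 after adjustment over the 10 members. The edgeR fit with library size set to the germ cell genes gave log2 fold changes of 1.01 for Epcam (SE 0.44, adjusted p = 0.0236) and 1.53 for Cdh1 (SE 0.50, adjusted p = 0.00271). That fit takes the germ cell sum as known and called 95.5% of all genes higher and 0.0904% lower, so the count of 10 of 10 members is near the background. The germ cell list was chosen with earlier results of these data known, and all 26 genes fell, with log2 fold changes of −3.07 to −1.44. That choice favours a positive difference, so the ratios compare a member with these genes only and not with every germ cell transcript.

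**Figure D4:**
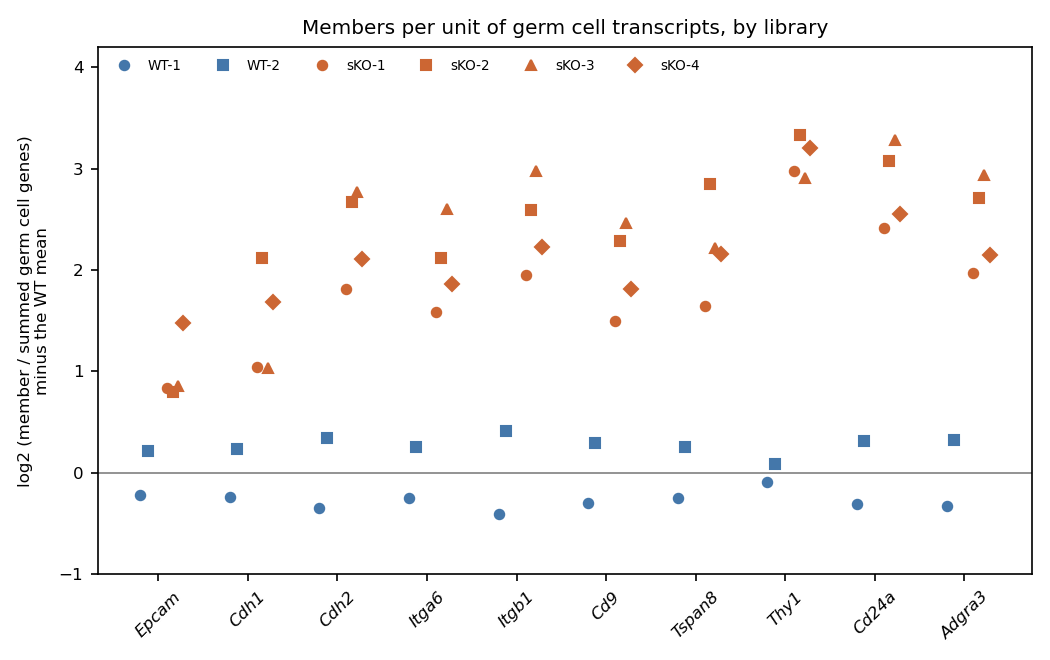
Each point is the log2 ratio of 1 member to the summed germ cell genes in 1 library, less the mean of the WT libraries; 0 on the linear axis means a fall equal to that of the germ cell genes. Epcam lies nearest to 0 among the members, with sKO-4 above the other sKO libraries.

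Other surface molecules used to mark spermatogonia were read for comparison. Of 10 such genes 3 were lower and 0 higher by edgeR (2.3% and 0.124% of all genes tested were). The median log2 fold change was −0.34 for these genes and 0.03 over all genes tested. Gfra1, the GDNF co-receptor of stem spermatogonia, was at 33.3 and 27.4 CPM in WT, against 15.5, 10.1, 8.72 and 15.2 in sKO-1 to sKO-4 (log2 fold change −1.29, SE 0.25, edgeR adjusted p = 0.0436). Its signalling partner Ret was at 51.3 and 37.8 CPM in WT, against 20.1, 9.80, 9.36 and 15.8 in sKO (−1.69, SE 0.31, adjusted p = 0.0377). Tex101, a lipid-anchored protein of germ cells, was at 12.4 and 9.52 CPM in WT, against 2.54, 1.82, 1.68 and 2.54 in sKO (−2.35, SE 0.25, adjusted p = 0.0110). All 3 had groups that did not overlap, an order that their choice by the test makes likely. Kit and Fgfr3, which did not pass, were also below both WT values in every sKO library. That made 5 of the 10 genes (13.3% of all genes). Epcam had a log2 fold change close to that of Gfra1 (−1.21 and −1.29) with a larger SE (0.36 and 0.25), and the difference between the genes was not tested. Without WT-1 none of the 3 calls held (adjusted p 0.371 for Gfra1, 0.342 for Ret and 0.142 for Tex101), while the log2 fold changes were −1.15, −1.46 and −2.15. The Gfra1 call ended without any 1 library (adjusted p 0.0573 to 0.371) and the Ret call also ended without WT-2 or without any 1 of sKO-2 to sKO-4 (0.0723 to 0.0845).

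Relatives of the members in the adhesion machinery showed no call by the main test. Of 17 tested cadherins and catenins 0 passed (median log2 fold change 0.04). The most abundant were β-catenin, Ctnnb1, which links cadherins to actin (0.10, SE 0.09), and p120-catenin, Ctnnd1 (0.04, SE 0.09). Of 21 tested integrin chains 0 passed (median 0.22), with Itgb5 at 0.23 (SE 0.13) and Itgav, its partner, at 0.17 (SE 0.17). Of 23 tested tetraspanins 0 passed (median 0.13), with Cd81 at 0.26 (SE 0.15) and Cd63 at 0.19 (SE 0.16). Of 19 tested adhesion molecules of other kinds 0 passed (median 0.10), with Bsg at 0.05 (SE 0.12) and the junction protein F11r at 0.17 (SE 0.09), and of 17 adhesion receptors of the Adgra3 family 0 passed (median 0.17), with Adgrl1 at 0.20 (SE 0.08) and Adgrg1 at 0.09 (SE 0.15). Over all 6 comparison lists 0 of 105 tested genes were higher and 3 were lower by edgeR (0.124% and 2.3% of all genes tested were). An unadjusted edgeR p under 0.05 was seen for 21 of the 105 (13.1% of all genes). DESeq2 called 1 higher and 4 lower (0.392% and 3.16% of all genes it tested were). With the subset term 14 were higher and 10 lower (4.97% and 8.65% of all genes tested).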

How the data were processed

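Polyadenylated RNA of whole testes was sequenced in 6 libraries. Titles gave the groups, 2 WT and 4 sKO, although the series' design text names equal groups. The authors deposited 1 table of expected counts, with decimals. The submitters' processing notes list fastp, STAR, RSEM and the build mm39, without versions; annotation and strand setting are not given in these sources. RSEM shares reads among similar genes: over at least 100 bases at 95% identity, Cd24a matched 1 other annotated gene and Cd9 and Itga6 several. Symbols (90.5% of identifiers) and exon lengths came from GENCODE M21, an annotation of another build.

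Counts were rounded, filtered with filterByExpr (minimum count 10) and scaled by TMM. Two-sided quasi-likelihood tests (edgeR 4.0.16, R 4.3.3) had no covariates. Their p-values were adjusted by the Benjamini-Hochberg method over 17707 genes, with 0.05 as threshold. Ratios to the germ cell list had exact permutation tests. Alternatives used DESeq2 1.42.0, limma-voom (limma 3.58.1), other scalings, filters, left-out libraries, a replicate block and a term for the library subsets. Members and lists were chosen with earlier results of these data known. Named genes were the members, in each comparison list up to 3 past the test or else the 2 most abundant, and the 3 most like Cd24a. Libraries within a group differed beyond sampling noise (chi-square per gene 4.08 to 24.7), so none was pooled. The steps were tested on simulated data. The genes Cadm1 and Nectin3 were not analysed here.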

Additional observations from a re-analysis of the deposited data

Results flagged for a closer look

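In groups of 4 libraries chance sets about 1 in 20 apart by the test used, and 3 of 53 groups examined were. The log2 ratio of Epcam to the summed germ cell genes was −3.62 in sKO-4 and −4.31 to −4.24 in the other sKO libraries (gap over range 0.904). The summed erythroid genes were 710 CPM in sKO-4 and 489 to 513 CPM in the other sKO libraries (0.892). The summed nerve and Schwann cell genes were 142 CPM in sKO-1 and 176 to 182 CPM in the others (0.837).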

How the results depend on the processing

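Over all genes, 22 higher and 408 lower genes became 80 and 646 with DESeq2, 216 and 648 with the replicate block, 880 and 1531 with the library subset as a term, and 2 to 7 and 1 to 225 when single libraries were left out (1 lower without WT-1). Sertoli library sizes gave 8 higher genes and moved the median of all genes from 0.03 to −0.14 (log2). The first subset alone (chosen after seeing the data) gave 282 higher and 946 lower genes and the second 267 higher. The 1 member called higher became 0 with limma-voom, RLE factors, Sertoli library sizes, no count filter, the replicate block, the first subset alone or any library left out (0 to 0). Members called lower, 0 by edgeR, were 1 with DESeq2, no count filter or the replicate block, 2 in the first subset alone, 3 with the subset term, and 0 to 1 with libraries left out. In the comparison lists the 0 higher and 3 lower became 1 higher with DESeq2, 14 and 10 with the subset term, 3 and 6 in the first subset and 4 higher in the second, and 0 to 2 lower with libraries left out.

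Signs turned as follows. With library size from the germ cell genes, which makes a loss equal to theirs 0, Epcam was at 1.01, Cdh1 1.53, Tspan8 2.25, Itga6 2.07 and Cd9 2.03. With Sertoli library sizes Cdh2 was at −0.139, Itgb1 −0.0430, Adgra3 −0.0401, Ctnnb1 −0.0701, Ctnnd1 −0.138, Bsg −0.118 and Adgrg1 −0.0893. When single libraries were left out, Cdh2 ran from −0.0556 to 0.0972, Tspan8 from −0.183 to 0.0665, Itgb1 from −0.0202 to 0.260, Ctnnd1 from −0.0635 to 0.123, Itgav from −0.0253 to 0.361, Cd63 from −0.0660 to 0.485, Bsg from −0.0823 to 0.167 and Adgrg1 from −0.0603 to 0.214. The first subset alone put Ctnnd1 at −0.0206. Of the values that turned, only those with germ cell library sizes had an adjusted p under 0.05. Thy1 gave no value with a filter of at least 1 CPM in 4 libraries.

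The replicate block, in which only the libraries numbered 1 and 2 inform the genotype, put Cdh2 at −0.0460, Itgb1 at −0.0154, Itgav at −0.0155 and Bsg at −0.0501, and Epcam at −1.46 (edgeR adjusted p 4.09e-05). Deviations from the group means correlated at 0.416 for WT-1 with sKO-1 and −0.441 for WT-2 with sKO-2. With 2 WT libraries the deviations of WT-2 are those of WT-1 with the sign turned, so these values only restate the library subsets. Whether libraries of the same number were paired cannot be told from them. Ratios to the germ cell genes kept their sign in all 8 alternatives for each member, from 0.775 to 1.21 for Epcam and 1.23 to 1.71 for Cdh1. Thy1 and Tspan8 were limited by counting.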

Other observations

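Of the 105 tested genes of the comparison lists, 6 had a log2 fold change below −1 without passing edgeR, a threshold set after the values were seen. All 6 were scarce, at 0.764 to 2.75 CPM in the WT mean, and in each the 4 sKO libraries were below both WT libraries. The choice by fold change makes that order likely, so it adds no support. It held for 13 of the 105 genes and for 13.3% of all genes tested. Ctnnd2, a catenin of the p120 family, had a WT mean of 2.71 ± 1.26 CPM (SD, n = 2) and a sKO mean of 0.434 ± 0.337 (SD, n = 4), a log2 difference of −2.63 (SE 0.60, edgeR adjusted p = 0.0770). Cdh15, M-cadherin, was at −1.32 (SE 0.38, adjusted p = 0.161) and Cdh4, R-cadherin, at −1.28 (SE 0.28, adjusted p = 0.0694). The tetraspanin Tspan33 was at −1.08 (SE 0.27, adjusted p = 0.109), the integrin chain Itgb4 at −1.04 (SE 0.32, adjusted p = 0.197) and the adhesion receptor Adgrd1 at −1.02 (SE 0.47, adjusted p = 0.429). With the subset term Ctnnd2 (adjusted p = 0.00901), Cdh4 (0.0173), Tspan33 (0.0248) and Cdh15 (0.0454) passed, and Itgb4 (0.0640) and Adgrd1 (0.207) did not.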
